A study of Homo sapiens with 15 samples.

Results

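The EGFR family was followed in HCT116 cells through 8 genes: the receptors EGFR, ERBB2 and ERBB3, the ligands AREG, EREG, HBEGF and TGFA, and ERRFI1, which encodes an inhibitor of the receptors. The genes were chosen by symbol and matched to the Ensembl identifiers of the deposited table, where all 8 were found among 60664 genes. HCT116 is a human colorectal carcinoma line, labelled wild type in all samples. The cells were left untreated or were grown for 72 h with 0.0154 mg/mL of hydroxytyrosol (HTyr), the main phenol of olive oil production waste products (OPWPs), or with the same dose of an HTyr-enriched OPWP extract named for its region, AE for Apulia, TE for Tuscany and SE for Sicily. The dose of an extract is the mass of the whole extract, so it does not match the HTyr group in HTyr itself, and the labels name no vehicle for the untreated cells. Each of the 5 groups had 3 libraries of poly(A) RNA. The labels call them biological replicates without giving their cultures, so p-values measure the spread between these libraries, which may be partly technical. The libraries of TE and SE are named here after their descriptions and the words of their titles. Bracketed codes in the same titles carry the other region's initial, and should the codes hold, TE and SE would swap while the mean of the 4 treatments would stay as given.

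Ligands of this family are made as membrane proteins and are shed from the cell surface by metalloproteases. A shed ligand binds EGFR, which then pairs with a second EGFR or with ERBB2 or ERBB3, and the phosphorylated tails of the pair recruit adaptors that activate the RAS-ERK and PI3K pathways. ERBB2 has no known ligand of its own and acts as a partner, ERBB3 binds neuregulins and has a weak kinase, and ERRFI1, itself induced by EGFR signalling, binds the EGFR kinase domain and blocks it. AREG and EREG are ligands that many colorectal tumours express.

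Levels are given in TPM, an abundance relative to the whole library that is corrected for gene length and can be compared between genes. They keep no depth, so the number of reads behind a value is unknown. Changes are differences of log2(TPM + 0.5), which understate the change of genes at low TPM. The model, limma, was fitted to the 14899 genes that reached 1 TPM in 3 or more of the 15 libraries, and all 8 family genes were among them. A gene is said to have risen or fallen where its adjusted p was under 0.05 and its fold change over 1.5, or 0.585 on the log2 scale. In bulk RNA, fewer cells with a transcript and less of it per cell cannot be told apart.

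The libraries were alike in their basic measures, with 13653 to 14034 genes at 1 TPM or more and 15.6% to 21.5% of all TPM from mitochondrially encoded genes, and no pair was identical. Among 7 epithelial markers, EPCAM lay between 270 and 346 TPM in all 15 libraries, while VIL1 was at most 0.23 TPM. Summed, the 7 markers gave 4196 to 4243 TPM in untreated and 2307 to 3144 TPM in treated cells. In the mean of the 4 treatments KRT19 fell by 0.88 and KRT18 by 0.79 on the log2 scale. These were 2 of the 6 markers tested, against 7.43% of all genes tested, and 0 of the 6 rose, against 10.4%. CDX2 changed by 0.16, 0.24, 0.16 and 0.19 with AE, TE, SE and HTyr and was not called. Of 4 leukocyte markers, PTPRC and CD3E, which define leukocytes and T cells, were at most 0.09 TPM, and the list's sum of 16.5 to 17.4 TPM in untreated and 1.67 to 6.82 TPM in treated cells came almost wholly from CD68, a lysosomal protein that is not limited to macrophages. The 4 fibroblast markers summed to 4.47 to 9.02 TPM, mostly from COL1A1 (4.06 to 8.53 TPM), the 1 marker tested, which was not called. The 3 endothelial markers summed to at most 0.22 TPM. The part of the epithelial marker levels in the changes of the family was not tested.

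In untreated cells the levels ran from ERRFI1 at 707 ± 30.5 TPM (SD, n = 3, as for all means) and AREG at 676 ± 67.8 TPM through EREG at 176 ± 2.53 TPM to TGFA at 42.6 ± 1.92 TPM, EGFR at 33.4 ± 1.87 TPM, ERBB2 at 27.1 ± 2.56 TPM, ERBB3 at 19.8 ± 2.63 TPM and HBEGF at 13.3 ± 0.808 TPM. Only ERRFI1 and AREG overlapped between neighbours in this order. The ligand transcripts of these cells were thus mostly AREG, with 74.3% ± 1.99 of the summed TPM of the 4 ligands, and EREG, with 19.5% ± 1.57.

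After treatment the family did not move as a unit. EGFR, HBEGF, TGFA and ERRFI1 were lower in all 12 treated libraries than in the 3 untreated ones, which is 4 of 8 genes against 11.8% of all genes tested. EREG was the 1 gene of 8 that was higher in all 12, against 15.3% of all genes tested, and AREG, ERBB2 and ERBB3 overlapped with untreated cells. HBEGF and ERRFI1 fell with each of the 4 treatments, against 3.19% of all genes, and 0 of 8 rose with each, against 4.66%. The comparisons of the treatments with untreated cells share the same 3 untreated libraries.

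**Figure D1:**
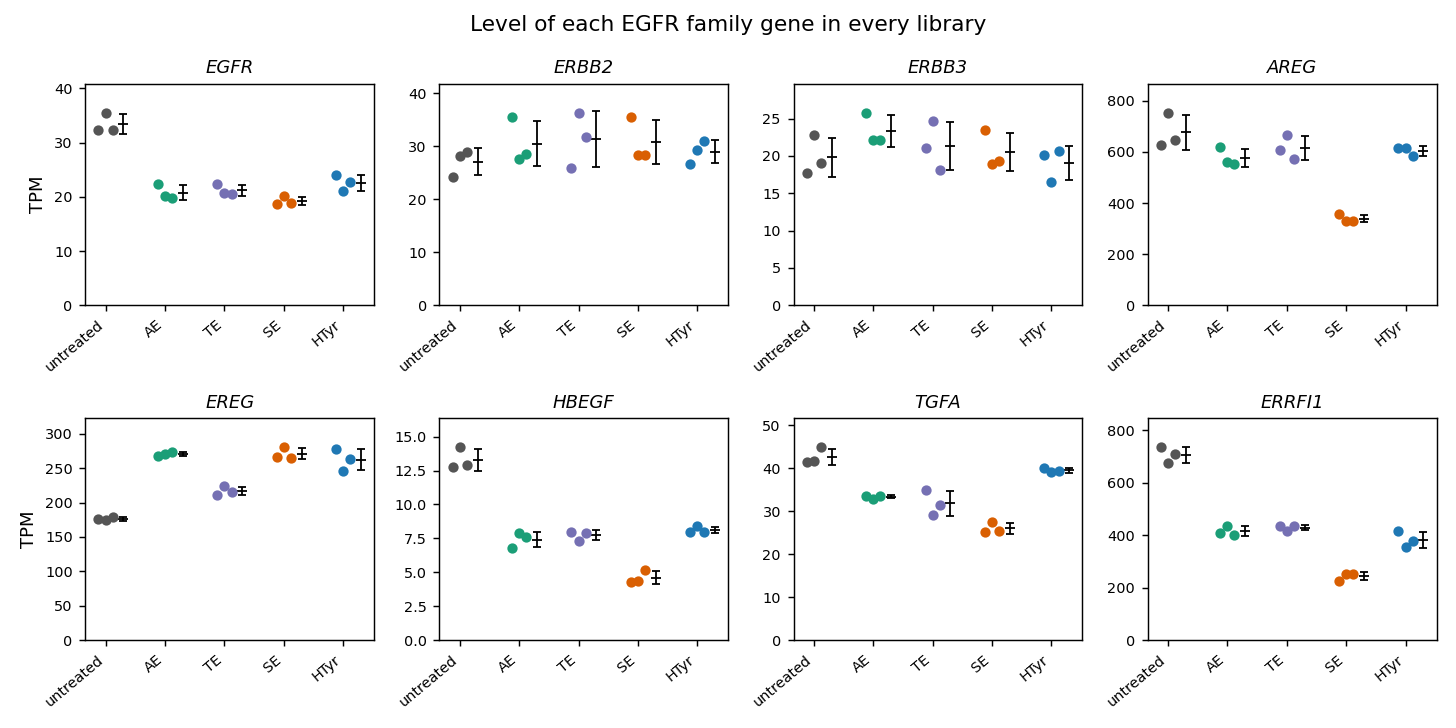
Level of each of the 8 genes in TPM (vertical axis from 0, a separate scale for each gene) in the 3 libraries of each group (horizontal axis); points are libraries and bars the mean ± SD of the group. EREG is the panel in which every treated library lies above the untreated ones, and SE has the lowest libraries of AREG, HBEGF, TGFA and ERRFI1.

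By treatment, the calls were as follows. With AE, 1 of the 8 genes rose, against 10.7% of all genes tested, and 3 fell, against 5.81%. With TE, 0 rose against 7.46% and 3 fell against 5.26%. SE gave the most calls, with 1 that rose against 17.0% and 5 that fell against 11.0%. With HTyr, 0 rose against 7.80% and 2 fell against 8.45%. In the mean of the 4 treatments 0 rose against 10.4% and 3 fell (EGFR, HBEGF and ERRFI1) against 7.43%. The median log2 fold change of the 8 genes was -0.74 with SE, -0.29 with AE, -0.28 with TE and -0.13 with HTyr, where the medians over all genes tested were 0.090, 0.087, 0.046 and -0.037. These counts were the same without the AE, TE and SE library of the highest mitochondrially encoded share.

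Of the receptors, EGFR fell and ERBB2 and ERBB3 did not pass the test. EGFR (ENSG00000146648, GRCh38 chromosome 7, 55019017 to 55211628) had 32.23, 35.53 and 32.37 TPM in untreated cells, 22.30, 20.17 and 19.86 TPM with AE, 22.34, 20.79 and 20.49 TPM with TE, 18.73, 20.11 and 18.93 TPM with SE, and 24.0, 21.05 and 22.77 TPM in the HTyr group. The highest treated library stood well below the lowest untreated one, and the treated groups lay close together. On the log2 scale EGFR fell by 0.67 with AE, 0.64 with TE and 0.78 with SE (standard error 0.072 each), with adjusted p of 7.63e-06, 1.81e-05 and 7.57e-07. With HTyr the change of -0.55 had an adjusted p of 4.95e-05 but was short of the fold threshold. The call with the extracts and not with HTyr is therefore by itself no difference between them. AE and TE did not differ detectably from HTyr in EGFR, with differences of -0.12 (95% interval -0.273 to 0.0353) and -0.09 (-0.243 to 0.0650). SE differed by -0.22 (adjusted p 0.0314), again short of the fold threshold. These small differences depend on the scaling. Median-ratio scaling moved the median of all genes by -0.12 between AE and HTyr, -0.07 between TE and HTyr and -0.13 between SE and HTyr.

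ERBB2 (ENSG00000141736, chromosome 17, 39687914 to 39730426), the partner receptor, had 24.19, 28.21 and 28.94 TPM in untreated cells, 35.46, 27.62 and 28.50 TPM with AE, 25.98, 36.39 and 31.86 TPM with TE, 35.54, 28.35 and 28.44 TPM with SE, and 26.76, 29.33 and 30.95 TPM in the HTyr group. Every treated group overlapped with the untreated one. Its log2 changes of 0.16 (AE), 0.20 (TE), 0.18 (SE) and 0.10 (HTyr) had a standard error of 0.13 each and did not pass the threshold (adjusted p 0.358, 0.274, 0.292 and 0.598), and the interval of the mean change, -0.0675 to 0.386, leaves out a change as large as that of EGFR in either direction. The highest ERBB2 libraries, AE 1, TE 2 and SE 1, were also those that topped their groups in mitochondrially encoded share, at 19.2%, 21.5% and 21.3%. Leaving out these libraries or the mitochondrially encoded genes did not turn the sign of any ERBB2 change against untreated cells. The part of that share was not otherwise tested.

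ERBB3 (ENSG00000065361, chromosome 12, 56076799 to 56103505), the neuregulin receptor, had 17.68, 22.77 and 19.08 TPM in untreated cells, 25.82, 22.11 and 22.19 TPM with AE, 21.12, 24.70 and 18.18 TPM with TE, 23.44, 18.88 and 19.32 TPM with SE, and 20.16, 16.47 and 20.65 TPM in the HTyr group. Every treated group overlapped with the untreated one, while the AE libraries lay above those of HTyr, a difference of 0.29 (95% interval 0.0027 to 0.574) that did not pass the test (adjusted p 0.187). Its log2 changes of 0.23, 0.10, 0.05 and -0.05 (standard error 0.13 each) did not pass the test, with adjusted p of 0.181, 0.602, 0.778 and 0.781, and the signs with TE, SE and HTyr were not stable, turning with another scaling (SE and HTyr) or with 1 library left out (all 3). Within the receptor transcripts, EGFR held 41.6% ± 1.68 of the summed TPM of the 3 receptors in untreated cells and 27.9% ± 1.11, 28.9% ± 3.39, 27.5% ± 2.99 and 32.0% ± 1.67 with AE, TE, SE and HTyr. The ratio of EGFR to ERBB2 was at least 1.12 in the untreated libraries and at most 0.897 in the treated ones.

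**Figure D2:**
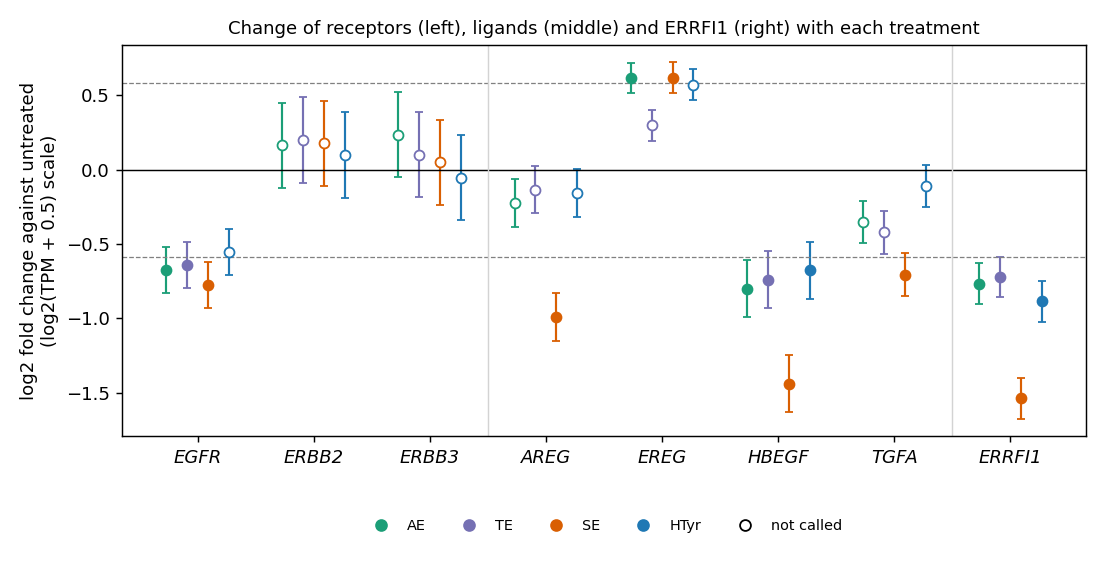
Change of each gene against untreated cells (vertical axis, log2 fold change on the log2(TPM + 0.5) scale) for AE, TE, SE and HTyr, with 95% intervals from the limma fit; filled points passed both thresholds, open points did not, and dashed lines mark a fold of 1.5. The intervals of ERBB2 and ERBB3 cross 0 with every treatment, and those of EGFR lie below 0.

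AREG and EREG, the most abundant ligands, are neighbours on chromosome 4 and went different ways. EREG (ENSG00000124882, 74365145 to 74388749) lies 56.39 kb before AREG (ENSG00000109321, 74445136 to 74455005) on the same strand, between EPGN 48.35 kb upstream and BTC 289.75 kb downstream on the opposite strand, and no other protein-coding gene lies among these 4 ligand genes. Their promoter windows, 250 bases before to 50 bases after the start, are shown because the genes are adjacent and their changes differ. The sequences are from RefSeq on GRCh38.p14, both on the plus strand, chr4:74444886-74445185 for AREG and chr4:74364895-74365194 for EREG, and capitals mark the cAMP response element (CRE) in AREG.
AREG: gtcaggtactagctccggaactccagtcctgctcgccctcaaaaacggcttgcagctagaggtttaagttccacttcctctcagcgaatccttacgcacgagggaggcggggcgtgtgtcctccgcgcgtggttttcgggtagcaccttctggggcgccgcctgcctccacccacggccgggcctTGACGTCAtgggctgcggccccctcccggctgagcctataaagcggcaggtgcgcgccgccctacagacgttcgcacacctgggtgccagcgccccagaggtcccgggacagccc
EREG: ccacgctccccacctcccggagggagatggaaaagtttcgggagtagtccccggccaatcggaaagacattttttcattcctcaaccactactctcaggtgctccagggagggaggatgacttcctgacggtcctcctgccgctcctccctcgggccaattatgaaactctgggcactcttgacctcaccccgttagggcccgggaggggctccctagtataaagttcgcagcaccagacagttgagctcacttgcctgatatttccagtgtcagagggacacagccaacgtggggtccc
The windows were searched on both strands for 4 motifs, the CRE (TGACGTCA), the AP-1 site (TGANTCA), the antioxidant response element (TGACNNNGC) and the xenobiotic response element (TNGCGTG). The CRE of AREG begins 65 bases before the start, and 1.84% of the 34796 promoter windows of the same length hold one. EREG held none of the 4 motifs, which 7.72% (AP-1), 13.3% (antioxidant) and 5.49% (xenobiotic) of all windows hold. Of the 8 genes, 7 had a window in the table and ERBB3 had none. In the 9 windows of these 7 genes the other matches were to AP-1, in ERBB2 at -222 and in the second window of EGFR at -232 and -136. Positions are counted from the start of each window's own transcript. The second window of EGFR, 55109589 to 55109888, lies inside the gene, and the first, at the annotated start of the gene, held no match. A match is a description of letters and not of a bound site.

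AREG, amphiregulin, had 628.19, 754.04 and 647.19 TPM in untreated cells, 618.72, 559.94 and 552.58 TPM with AE, 608.64, 664.69 and 573.79 TPM with TE, 357.02, 331.48 and 329.62 TPM with SE, and 614.91, 617.04 and 583.09 TPM in the HTyr group. SE stood far below all other libraries, AE and HTyr lay just under the lowest untreated library, and TE overlapped with untreated cells. With SE, AREG fell by 0.99 on the log2 scale (its standard error was 0.075 and its adjusted p 1.06e-07), to 0.503 times the untreated level. With AE the change was -0.23 (adjusted p 0.0275), under the fold threshold, and with TE and HTyr the changes of -0.13 and -0.16 did not pass the test (adjusted p 0.188 and 0.114). The difference itself was called between SE and every other treatment, at -0.76 from AE (adjusted p 1.17e-05), -0.86 from TE (2.40e-06) and -0.83 from HTyr (5.30e-06).

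EREG, epiregulin, had 176.11, 173.92 and 178.96 TPM in untreated cells, 268.34, 270.79 and 272.91 TPM with AE, 211.63, 223.43 and 215.54 TPM with TE, 266.97, 280.36 and 265.33 TPM with SE, and 277.64, 246.10 and 263.70 TPM in the HTyr group. No treated library overlapped with the untreated ones, and TE stood between untreated cells and the other 3 treatments. EREG rose by 0.62 on the log2 scale with AE (adjusted p 5.05e-07) and by 0.62 with SE (1.40e-07), just past the fold threshold, while 0.57 with HTyr (1.30e-06) and 0.30 with TE (0.00035) were short of it (standard error 0.048 each). Which treatments passed depended on the scaling: with median-ratio scaling EREG changed by 0.52 with AE and 0.51 with SE, both without a call, and by 0.60 with HTyr, with a call, and quantile normalization gave 0.47 and 0.35 with AE and SE, both without a call. Leaving out HTyr replicate 2 gave 0.62 with HTyr, with a call. The direction was upward with each treatment in all of these settings. In EREG, AE exceeded TE by 0.32 (adjusted p 0.0123) and SE exceeded TE by 0.32 (0.000255), and TE differed from HTyr by -0.27 (0.00971), each short of the fold threshold, while SE and AE differed by 0.00 (95% interval -0.103 to 0.104).

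**Figure D3:**
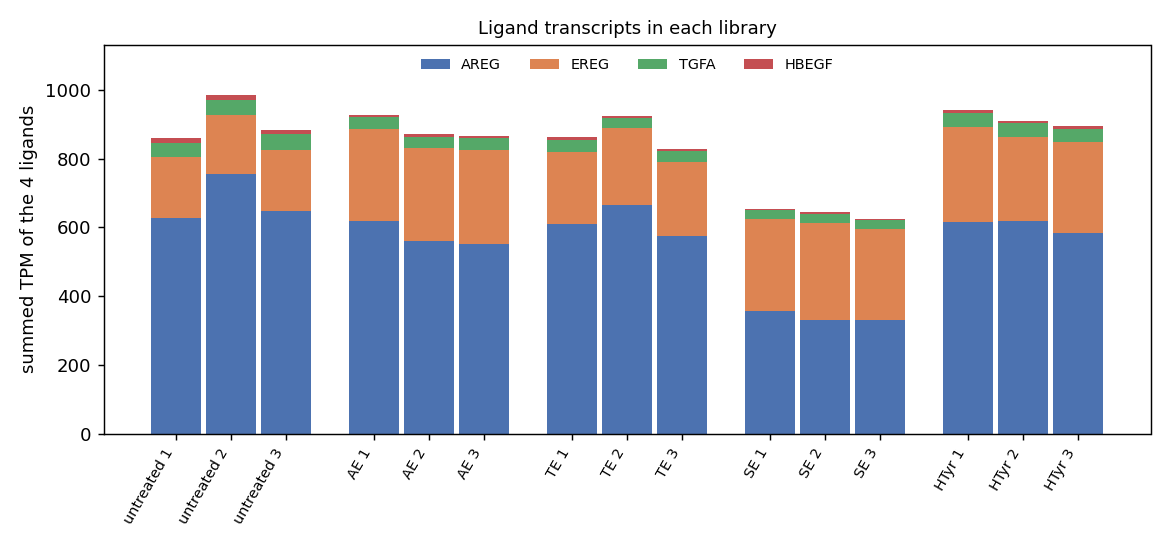
Summed TPM of AREG, EREG, TGFA and HBEGF (vertical axis from 0) in each of the 15 libraries (horizontal axis), with 1 colour for each ligand. The SE bars are the shortest, at 625 to 653 TPM, with the smallest AREG part and an EREG part as tall as that of AE.

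The 4 ligands together gave 909 ± 66.3 TPM in untreated cells, 888 ± 33.7 TPM with AE, 872 ± 48.6 TPM with TE and 915 ± 23.6 TPM with HTyr, so that these groups overlapped in the sum. With SE it was 641 ± 14.2 TPM, below every other library. Against the untreated 74.3% ± 1.99, AREG held 64.9% ± 1.59 of the sum with AE, 70.6% ± 1.33 with TE, 52.9% ± 1.58 with SE and 66.1% ± 1.42 in the HTyr group, and the EREG share went from 19.5% ± 1.57 to 30.5% ± 1.37, 24.9% ± 0.979, 42.3% ± 1.36 and 28.7% ± 1.43. The ratio of AREG to EREG was 3.84 ± 0.430 in untreated cells and 2.13 ± 0.151, 2.84 ± 0.160, 1.25 ± 0.0781 and 2.31 ± 0.170 with AE, TE, SE and HTyr. All 12 treated libraries were below the 3 untreated ones in this ratio. A common factor for all genes of a library leaves the ratio unchanged.

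HBEGF and TGFA, the less abundant ligands, went down. HBEGF (ENSG00000113070, chromosome 5, 140332843 to 140346603), heparin-binding EGF-like growth factor, had 12.76, 14.22 and 12.89 TPM in untreated cells, 6.80, 7.87 and 7.58 TPM with AE, 8.0, 7.33 and 7.93 TPM with TE, 4.30, 4.34 and 5.16 TPM with SE, and 8.0, 8.38 and 7.99 TPM in the HTyr group. TE overlapped with AE and with HTyr, and SE lay below all 3. HBEGF fell by 0.80, 0.74, 1.44 and 0.68 on the log2 scale with AE, TE, SE and HTyr (standard error 0.089 each), with adjusted p of 1.12e-05, 3.38e-05, 1.66e-08 and 5.70e-05. The difference of SE was -0.64 from AE (adjusted p 0.000252), -0.70 from TE (6.83e-05) and -0.76 from HTyr (4.58e-05).

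TGFA (ENSG00000163235, chromosome 2, 70447284 to 70554193), transforming growth factor alpha, had 41.39, 41.65 and 44.83 TPM in untreated cells, 33.42, 32.92 and 33.55 TPM with AE, 34.84, 29.06 and 31.39 TPM with TE, 25.11, 27.43 and 25.32 TPM with SE, and 39.98, 39.09 and 39.25 TPM in the HTyr group. HTyr lay just under the untreated range, AE and TE in between, and SE lowest. Only the fall with SE passed both thresholds, a log2 change of -0.71 (standard error 0.067, adjusted p 9.58e-07). The changes with AE and TE, -0.35 and -0.42, had adjusted p of 0.000909 and 0.000297 and were under the fold threshold, and with HTyr the change of -0.11 did not pass (0.212). The extracts differed from HTyr here, AE by -0.24 (95% interval -0.384 to -0.0977, adjusted p 0.0399), TE by -0.31 (0.0276) and SE by -0.60 (3.16e-05), of which only the last passed the fold threshold. That call was lost without SE replicate 1 (-0.57) or SE replicate 3 (-0.58).

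ERRFI1 (ENSG00000116285, chromosome 1, 8004404 to 8026309), the feedback inhibitor of the receptors, had 735.02, 674.37 and 710.39 TPM in untreated cells, 409.58, 435.38 and 400.96 TPM with AE, 435.19, 416.16 and 433.59 TPM with TE, 226.60, 251.39 and 251.73 TPM with SE, and 414.02, 354.44 and 379.49 TPM in the HTyr group. The treated libraries stood far below the untreated ones, and SE was again the lowest group. On the log2 scale ERRFI1 fell by 0.77, 0.72, 1.54 and 0.89 with AE, TE, SE and HTyr (standard error 0.063 each), with adjusted p of 8.07e-07, 2.42e-06, 4.49e-10 and 3.61e-07. The level with SE was 0.345 times that of untreated cells, and 1.72% of all genes tested had a lower log2 change with SE. SE differed from AE by -0.77 (adjusted p 2.52e-06), from TE by -0.82 (9.64e-07) and from HTyr by -0.65 (9.89e-06).

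Between treatments, SE was set apart from the rest by AREG, HBEGF and ERRFI1. SE and HTyr differed in 4 of the 8 genes (with TGFA), against 7.36% of all genes tested, and in 3 without the AE, TE and SE library of the highest mitochondrially encoded share. SE and AE differed in 3, against 4.72%, and SE and TE in the same 3, against 8.36%. AE and HTyr differed in 0 genes against 1.34%, TE and HTyr in 0 against 0.705%, and AE and TE in 0 against 0.0873%. These counts need both the adjusted p and the fold threshold. Short of the fold threshold, TGFA differed between AE and HTyr and between TE and HTyr at adjusted p under 0.05. EREG did so between TE and HTyr and between AE and TE. All calls between treatments were lower levels with SE. Median-ratio scaling moved the median of all genes by -0.13 between SE and HTyr and by -0.12 between AE and HTyr. On that scale the SE to HTyr differences were -0.97 for AREG, -0.89 for HBEGF, -0.73 for TGFA and -0.79 for ERRFI1, with all 4 calls present. In EREG, SE differed from HTyr by 0.05 (95% interval -0.0565 to 0.150, not called), and the sign turned with median-ratio scaling, to -0.09 (adjusted p 0.185).

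The other receptor and ligands of the family were mostly near the limit of the table. Of 8 such genes 3 passed the filter on low values. BTC, betacellulin, the ligand gene downstream of AREG, had 3.12, 3.39 and 4.03 TPM in untreated cells and 5.49 to 8.51 TPM in the 12 treated libraries. The groups did not overlap, and BTC rose by 1.01, 0.83, 0.78 and 0.67 on the log2 scale with AE, TE, SE and HTyr (standard error 0.12 each, adjusted p 1.84e-05, 0.000137, 8.47e-05 and 0.00061). NRG4, a neuregulin that binds ERBB4, had 0.11 to 0.34 TPM in untreated cells, 0.68 to 1.11 TPM with AE, 0.23 to 0.55 TPM with TE, 1.92 to 2.38 TPM with SE and 0.24 to 0.85 TPM in the HTyr group. It was highest with SE, where it rose by 1.84 (adjusted p 6.19e-05), and it rose by 0.87 with AE (0.0202). These changes depend on the added 0.5 TPM at such levels. NRG4 reached 1 TPM in only 4 libraries, those of SE and AE replicate 3. It thus passed the filter through the group where it is high, and its p-values are no independent support for the rise. NRG1, a ligand of ERBB3, lay between 0.85 and 4.19 TPM and was not called with any treatment. EGF (at most 0.79 TPM), EPGN (1.30 TPM), NRG2 (0.96 TPM) and ERBB4 (0.12 TPM) did not pass the filter, and NRG3 was listed at 0 in all libraries.

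Among genes that shed or carry the ligands to the surface, 7 of 8 were tested and 0 rose. The share of all genes tested that rose lay between 7.46% (TE) and 17.0% (SE) by treatment. A list of 7 genes is too short to tell 0 from such shares. RHBDF1, an inactive rhomboid that guides the protease ADAM17 to the cell surface, fell by 0.75 with AE, 0.98 with SE and 0.79 with HTyr (adjusted p 0.0021, 0.000163 and 0.00155) and by 0.76 in the mean of the 4 treatments. Its relative RHBDF2 fell with HTyr, by 0.65 (0.00345). ADAM17, the main sheddase of AREG, EREG, HBEGF and TGFA, was looked up after the values were known and had changes of -0.03, -0.20, -0.52 and -0.54 with AE, TE, SE and HTyr, none past the fold threshold. Of the 7, 2 fell with HTyr, 1 with SE, 1 with AE and 0 with TE, where 8.45%, 11.0%, 5.81% and 5.26% of all genes tested fell, and the list's median change in the mean of the 4 was -0.32, against 0.047 over all genes.

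The adaptors and effectors that bind the receptors were mostly not called. All 13 were tested, and in the mean of the 4 treatments 0 rose, 1 fell and 12 were not called, with a median change of -0.08. The 1 of 13 is near the 7.43% of all genes tested that fell, and 10.4% of all genes rose. The 1 that fell was GAB2, a docking protein of the PI3K pathway, at -0.66 (adjusted p 0.000718), from 2.17 ± 0.170 TPM in untreated cells to 1.01 ± 0.155 TPM with SE. Going the other way, PIK3R1, the regulatory subunit of PI3K, rose by 0.59 with AE (0.0157) and by 0.81 with TE (0.00267). PLCG1, a phospholipase recruited by EGFR, rose by 0.63 with SE (0.0177), just past the fold threshold. Its untreated libraries were spread, at 29.08, 17.75 and 13.13 TPM, and overlapped with those of SE at 32.42, 30.37 and 26.09 TPM.

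Of 19 genes for receptor inhibition, ubiquitination and sorting, all tested, 0 rose and 4 fell in the mean of the 4 treatments, where 10.4% of all genes tested rose and 7.43% fell, with a median change of -0.30. ERBIN, a scaffold that binds ERBB2, fell by 0.91, from 60.2 ± 6.16 TPM to between 29.3 and 33.6 TPM in the group means, and it fell with each treatment. STAM2, an endosomal sorting adaptor, fell by 0.68, CBLC, a ubiquitin ligase of the CBL family, by 0.63, and LRIG2, a transmembrane protein related to the EGFR inhibitor LRIG1, by 0.59 (adjusted p 3.98e-05, 1.37e-05, 1.14e-06 and 0.000646 for the 4 genes). CBLC went down furthest with SE, by 1.23, from 33.2 ± 2.65 to 13.9 ± 1.18 TPM. STUB1, a ubiquitin ligase looked up after the values were known, changed by 0.45, 0.43, 0.54 and 0.48 with AE, TE, SE and HTyr. Each change was short of the fold threshold (adjusted p 0.000608, 0.00108, 8.03e-05 and 0.000448). With SE 6 of the 19 fell (11.0% of all genes tested did), with HTyr 3 (8.45%), with AE 2 (5.81%) and with TE 2 (5.26%).

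The 16 genes commonly induced by EGFR and ERK signalling were split. In the mean of the 4 treatments 0 rose (10.4% of all genes tested did), 4 fell (7.43%) and 12 were not called, with a median change of -0.19. DUSP5, a phosphatase that acts on nuclear ERK, had 642.27, 527.63 and 583.07 TPM in untreated cells, against 94.6 ± 0.262 TPM with AE, 103 ± 4.61 TPM with TE, 42.7 ± 3.60 TPM with SE and 120 ± 15.7 TPM in the HTyr group. EPHA2, an ephrin receptor, fell from 205 ± 4.21 TPM to group means of 68.5, 71.8, 41.9 and 85.0 TPM. The mean log2 changes over the 4 treatments were -2.79 for DUSP5 (adjusted p 2.41e-11), -1.66 for EPHA2 (4.96e-11), -0.73 for MYC (3.60e-08) and -0.63 for FOSL1 (5.42e-05), the last an AP-1 subunit whose change with HTyr was -0.06. DUSP6, the cytoplasmic ERK phosphatase, looked up after the values were known, changed by 0.34, 0.44, -0.27 and -0.17 with AE, TE, SE and HTyr and was not called. ETV4, also looked up then, changed by 0.48, 0.32, 0.25 and 0.35 with AE, TE, SE and HTyr. These changes were short of the fold threshold (adjusted p 0.000921, 0.0154, 0.0377 and 0.00821). Of the 16, 7 fell with SE (11.0% of all genes tested did), 3 with HTyr (8.45%), 4 with AE (5.81%) and 4 with TE (5.26%), and the list medians were -0.43 (SE), -0.14 (AE), -0.11 (TE) and -0.17 (HTyr).

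**Figure D4:**
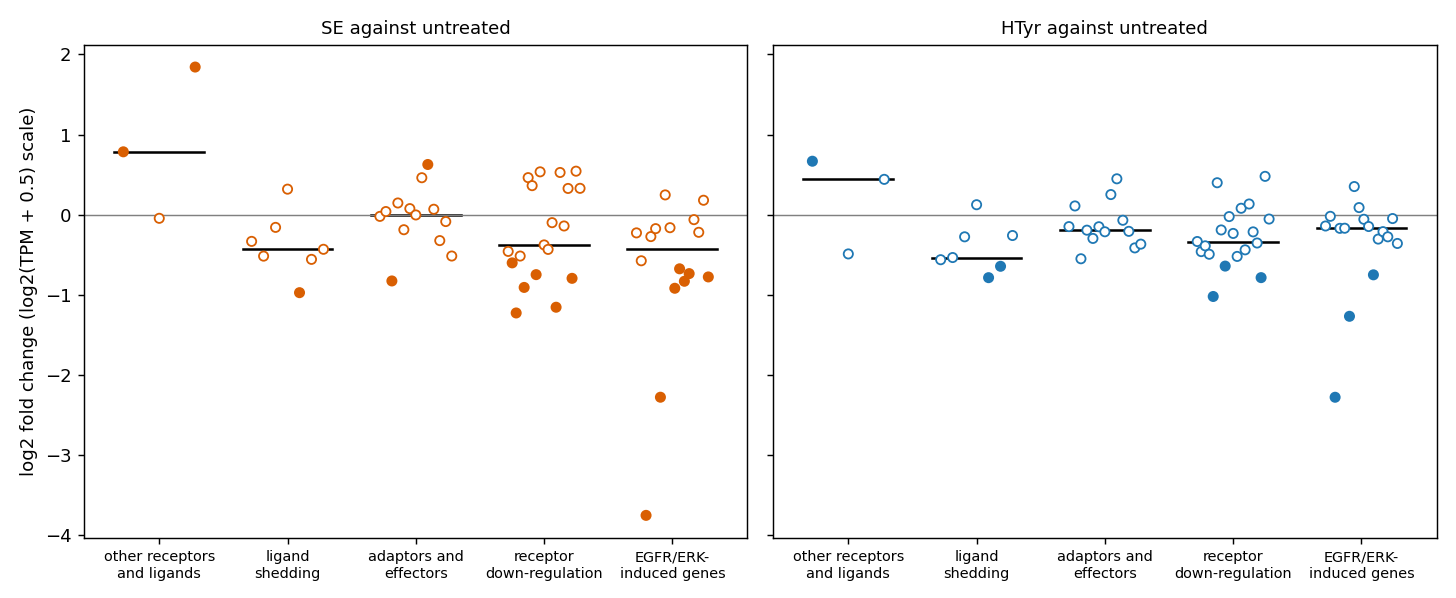
Log2 fold change (log2(TPM + 0.5) scale) of every tested gene of 5 lists around the family, for SE (left) and HTyr (right) against untreated cells; each point is a gene, filled where it passed both thresholds, and black lines are the list medians. The medians of the EGFR and ERK induced genes are -0.43 with SE and -0.17 with HTyr, and DUSP5 and EPHA2 are the lowest points of that list in both panels.

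Likeness of pattern was measured as the root mean square difference between centred log2(TPM + 0.5) values over the 15 libraries, among genes with a mean of at least 5 TPM. The nearest genes to EGFR were ITGA6, an integrin subunit (0.0739), and DNMBP (0.0758). ITGA6 had group means of 98.3 TPM in untreated cells and 65.7, 65.3, 53.8 and 69.7 TPM with AE, TE, SE and HTyr. HBEGF was closest to CDCP1 (0.0865) and TNFRSF12A (0.0897), and ERRFI1 to MAPRE3 (0.0630) and CDCP1 (0.0802), so that the transmembrane protein CDCP1 stood near both. CDCP1 went from 134 TPM in untreated cells to 77.6, 81.9, 48.3 and 80.2 TPM. AREG was nearest to BCL2L1, an inhibitor of apoptosis (0.0995), and to SH3KBP1 (0.106), an adaptor of CBL ubiquitin ligases, and BCL2L1 went from 239 TPM to 193, 196, 122 and 191 TPM. For TGFA they were AHNAK (0.0954) and PHLDA1 (0.106), and for EREG COX15 (0.0824), a mitochondrial heme A synthesis enzyme, and HYCC1 (0.0923). The receptors that were not called were nearest to YWHAE (0.0826) and HNRNPUL1 (0.105) for ERBB2 and to NSA2 (0.0707) and ZFR (0.0788) for ERBB3. These likenesses describe 15 libraries that share their groups and their scaling.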

How the data were processed

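RNA-seq libraries of HCT116 cells in 5 groups of 3 were analysed. Reads were mapped by the authors with STAR on GRCh38 and quantified with RSEM for Ensembl genes, tools also listed in the submitters' processing notes. Their versions were not given in the sources used here. All deposited values are TPM, made by the authors for each library, rounded to 2 decimals and not scaled between libraries. The estimated counts behind the authors' own tests did not enter, which leaves no count model. Library depth is unknown, so intervals for counting error cannot be had. The columns of TE and SE were matched to samples by first letter and by the headings of the study's supplementary table.

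Here log2(TPM + 0.5) values of the 14899 genes that reached 1 TPM in 3 or more of 15 libraries were fitted (45765 genes were left out) with limma 3.58.1 in R 4.3.3, with 5 group means, a mean-variance trend, 10 residual and 3.42 prior degrees of freedom, and Benjamini-Hochberg adjustment over all genes tested. The script was tested on simulated data. Symbols and coordinates come from GENCODE 44, which names 60463 of the 60664 identifiers. Python 3.11.15 with pandas 2.3.3 and numpy 2.4.6 made the tables, and matplotlib 3.10.9 the figures. Promoter windows come from RefSeq.

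The 8 genes and the lists were chosen with earlier results of these data known. By rule, the text names all 8, every other family receptor and ligand, up to 4 called genes with the largest mean change in each list and up to 2 that went the other way, and for each of the 8 genes the 2 genes of most similar pattern. ADAM17, DUSP6, ETV4 and STUB1 were named outside the rule, and markers were named to describe their lists. The alternatives tried were other pseudocounts, filters, fold thresholds and scalings, and leaving out mitochondrially encoded genes or each library. Fitting the compared groups alone, a replicate block and no trend were also tried. Chosen after seeing the data was leaving out the 3 libraries of AE, TE and SE with the highest mitochondrially encoded share.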

Additional observations from a re-analysis of the deposited data

How the results depend on the processing

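Of 446 recomputed counts of family genes called, 420 were within 1.5 times the value given, and of 1292 recomputed log2 changes 1271 kept direction and side of the threshold, 7 lost a call, 4 gained one and 10 turned sign. TPM without depth limit what can be said of genes near 1 TPM.

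Calls turned mainly on the fold threshold. With a fold over 2, the counts were 0 that rose and 0 that fell with AE, 0 that fell with TE, HTyr and the mean of the 4, 0 that rose and 2 that fell with SE, and 0 that differed between SE and HTyr, AE or TE. Without a fold threshold, 5 fell with AE, 1 rose with TE, 1 rose with HTyr, 1 rose and 5 fell in the mean of the 4, and 1 differed between AE and HTyr, 2 between TE and HTyr, 5 between SE and TE and 1 between AE and TE. Median-ratio scaling and quantile normalization gave 0 that rose with AE and 0 with SE, and median-ratio scaling or leaving out mitochondrially encoded genes gave 1 that rose with HTyr, in each case EREG. Leaving out each library in turn gave 0 to 1 that rose and 2 to 3 that fell with HTyr and 3 to 4 that differed between SE and HTyr, and every other count was the one given: 1 and 3 with AE, 0 and 3 with TE, 1 and 5 with SE, 0 and 3 in the mean of the 4, 3 between SE and AE, 3 between SE and TE, and 0 between AE and HTyr, TE and HTyr, and AE and TE. EGFR was called with HTyr at -0.60 without HTyr replicate 1.

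Of the 50 changes counted here, those against untreated cells and those called between treatments, only ERBB3, never called, turned sign. Leaving out each library in turn gave -0.0098 to 0.206 with TE, -0.0460 to 0.151 with SE and -0.130 to 0.0476 with HTyr, the sign turning without TE replicate 2, without untreated replicate 1 or SE replicate 1, and without untreated replicate 2 or HTyr replicate 2. It was -0.0098 with TE and -0.0460 with SE without the 3 libraries of high mitochondrially encoded share, -0.0551 with SE with median-ratio scaling, and -0.0342 with SE and 0.0111 with HTyr with quantile normalization. The cause of these changes was not tested.

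A replicate block left every count as given, for example 1 that rose and 5 that fell with SE. No pairing of the samples by replicate number was detected, and the labels do not give their cultures. Same-numbered libraries of different groups had correlations of -0.21 to 0.26 over 30 pairs, with 3 over 0.1. Differently numbered ones had -0.23 to 0.28, and 4 of 15 libraries correlated best with their own number. Fitting only the compared groups is the main model for the mean of the 4 treatments and was not run there.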
